A study of Homo sapiens with 120 samples.

Results

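The HOX cluster genes were followed across all 120 RNA-seq libraries of a study of the long noncoding RNA lncPRESS1 in the established human embryonic stem cell line H1. Every gene whose symbol is HOX followed by A, B, C or D and a number was taken, which gave 39 of the 62703 genes in the table. Of these, 11 belong to HOXA, 10 to HOXB, 9 to HOXC and 9 to HOXD. Each of the 60 groups had 2 libraries, labelled a and b. In the differentiation arm, with 96 libraries, cells labelled WT, KO or ΔATG were sampled at day 0 and on days 1 to 5 of 3 protocols. These were BMP4 for mesoderm, inhibition of SMAD signalling with a commercial neural induction kit (SMADi) for neuroectoderm, and a commercial definitive endoderm kit (Endo). The KO and ΔATG labels refer to edits of lncPRESS1, and the second names its ATG start codon. In the overexpression arm, with 24 libraries, cells carried a construct labelled vector, lncSIRP, lncPRESS1 or lncPRESS1 ΔATG and were sampled at stages labelled early, middle and late. The labels do not say whether libraries a and b came from separate cultures, or how many clones each edited line represents, so p-values measure the spread between these libraries, which may be technical. That spread was estimated for each gene over all groups of an arm, not from the compared groups alone.

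HOX genes encode homeodomain transcription factors that give cells of the body axis their position from head to tail. Within a cluster the genes lie in the order of their paralogue numbers, and low-numbered genes at the 3' end are known to start earlier and reach further forward in the embryo than high-numbered genes at the 5' end, a relation called collinearity. In pluripotent cells the clusters are held silent by Polycomb proteins, and WNT, FGF, BMP and retinoic acid signals, in part through CDX factors, are known to open them in mesoderm and hindbrain. On the GRCh38 build, HOXA lies at chr7:27092993-27200106, HOXB at chr17:48528526-48729178, HOXC at chr12:53938765-54056030 and HOXD at chr2:176092891-176190907.

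The promoters of 3 members are shown because they mark the ends of clusters that the protocols used in different ways. HOXB1 is the 3' end of HOXB and rose in BMP4, HOXD13 is the 5' end of HOXD and rose in Endo, and HOXA13 is the 5' end of HOXA and rose in BMP4 while much of the rest of its cluster stayed near 0. Each sequence is from RefSeq (GRCh38.p14), runs 5' to 3' on the gene's strand and ends at the base before the annotated start. HOXB1 is at chr17:48531012-48531261 (minus strand), HOXD13 at chr2:176092471-176092720 (plus strand) and HOXA13 at chr7:27200107-27200341 (minus strand, 235 bases). Capitals mark matches, on either strand, to the PBX-HOX motif TGATNNAT, the CCAAT box (CCAAT, or ATTGG on the other strand) and the TATA box (TATAAA, or TTTATA on the other strand).
HOXB1: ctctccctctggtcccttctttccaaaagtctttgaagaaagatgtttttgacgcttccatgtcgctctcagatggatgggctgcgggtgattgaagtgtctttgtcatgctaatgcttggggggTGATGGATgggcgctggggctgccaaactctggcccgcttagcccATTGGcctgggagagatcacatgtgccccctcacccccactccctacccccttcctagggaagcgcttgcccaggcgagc
HOXD13: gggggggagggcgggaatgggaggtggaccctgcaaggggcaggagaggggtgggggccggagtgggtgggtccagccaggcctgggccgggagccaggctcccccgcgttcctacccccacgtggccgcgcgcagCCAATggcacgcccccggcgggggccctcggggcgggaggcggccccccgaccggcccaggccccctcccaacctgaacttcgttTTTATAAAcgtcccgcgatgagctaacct
HOXA13: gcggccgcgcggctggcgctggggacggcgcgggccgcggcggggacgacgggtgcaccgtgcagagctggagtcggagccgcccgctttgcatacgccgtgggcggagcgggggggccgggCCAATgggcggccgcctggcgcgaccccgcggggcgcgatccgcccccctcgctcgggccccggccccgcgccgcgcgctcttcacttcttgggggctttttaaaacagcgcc
The HOXB1 window held TGATGGAT 125 bases before the start, a form of the motif that HOX and PBX proteins bind together, and ATTGG at 80 bases. In the HOXD13 window CCAAT lay at 114 bases, and TATAAA and its reverse form overlapped at 27 and 29 bases. The HOXA13 window held CCAAT at 128 bases. Over 35116 RefSeq promoter windows, 6.47% held TGATNNAT, 32.0% CCAAT and 10.7% TATAAA, against 3, 17 and 5 of the 26 windows that belong to HOX genes. The CDX-type motif TTTATG was in 9.64% of all windows and in 3 of the 26, and the SMAD1/5-type motif GGCGCC in 16.4% and in 7 of the 26. A promoter sequence was matched for 20 of the 39 genes. These matches describe the letters only.

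Library totals ran from 38298440 to 71220396 counts in the differentiation arm and from 40113672 to 65466258 in the overexpression arm. Values are in CPM, counts scaled to the library total after TMM adjustment of that total. A count of 3, the most that a library with none detected allows, corresponded to 0.0412 to 0.0815 CPM in the differentiation libraries. Across lines, LNCPRESS1 itself was at 21.4 and 40.6 CPM at day 0 in WT, 13.2 and 5.6 in KO and 53.1 and 35.2 in ΔATG, so both KO libraries were below both WT libraries and neither edited line lacked the transcript. In the overexpression arm the library labels and the LNCPRESS1 level did not run together. It was at 185 and 133 CPM in the early libraries labelled lncSIRP but at 32.3 and 53.8 in those labelled lncPRESS1, against 29 and 30.2 in the vector. At the middle stage it was at 13.7 and 13.3 in the libraries labelled lncSIRP and 55.1 and 58.6 in those labelled lncPRESS1. Those 4 middle libraries also stood apart from the other 20 of their arm. The pluripotency gene POU5F1 was at 258 to 304 CPM in them against 2190 and 2330 in the middle vector libraries, and HAND1, a lateral mesoderm gene, at 333 to 474 against 0 and 0.0157. Results that rest on them are given under their labels, with and without them.

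In undifferentiated WT cells the clusters were close to silent. The 39 genes summed to 0.88 and 0.931 CPM, 26 of them had no count in either library, and none reached 1 CPM. The members with most of this signal were HOXB1, at 0.372 and 0.246 CPM, and HOXB13, the 5' end of HOXB, at 0.288 and 0.211. Over all 96 differentiation libraries 21 members stayed under 1 CPM and 18 passed it at least once. A total of 23 members passed the filter on low counts and were tested. The 16 that were not are HOXA2 to HOXA6, HOXC5, HOXC8 to HOXC12, HOXD3, HOXD4, HOXD8, HOXD10 and HOXD12. Because a member could pass through the one group where it was high, counts among the 23 do not stand for all 39.

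**Figure D1:**
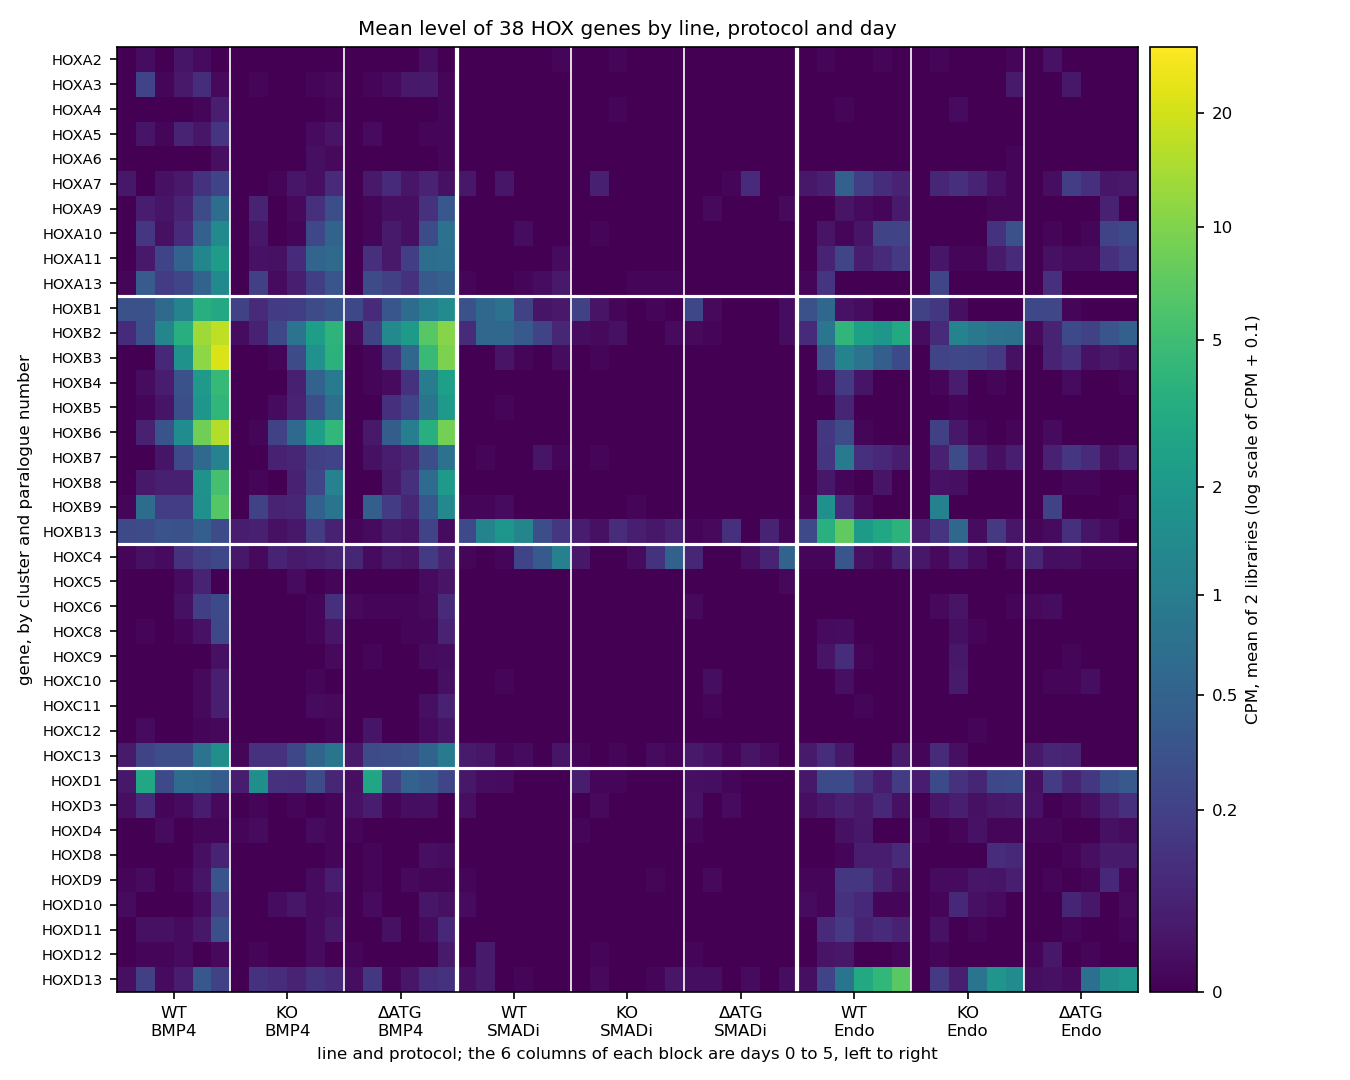
Mean CPM of 38 HOX genes (rows, by cluster and paralogue number) in each line and protocol (columns, days 0 to 5 from left to right, mean of 2 libraries, colour on a log scale of CPM + 0.1). The blocks of high colour are HOXB1 to HOXB9 in BMP4 days 3 to 5, lowest in KO, and HOXB13, HOXB2 and HOXD13 in WT Endo.

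In WT cells given BMP4 HOXB1 to HOXB9 came on over 5 days, with smaller rises in the 5' genes of HOXA and in HOXC13. The sum over the 39 genes was 7.03 and 7.2 CPM on day 1, 4.61 and 5.4 on day 2, 16.4 and 9.87 on day 3, 66.6 and 36.4 on day 4 and 79.6 and 101 on day 5. On day 5 the HOXB genes made up a mean of 79.3 CPM of this, HOXA 6.89, HOXC 2.52 and HOXD 1.57. Against WT day 0, with edgeR's quasi-likelihood test and an adjusted p under 0.05 over all genes, 8, 9, 15, 19 and 21 of the 23 tested members rose on days 1 to 5 and none fell. The share of all 25821 tested genes that rose was 14.6%, 16.6%, 17.5%, 21.3% and 21.6%. The median log2 fold change on day 5 was 7.36 over the tested members and 0 over all genes. The members that did not pass on day 5 were HOXA7 and HOXB13.

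Genes called from day 1 came from different positions in their clusters. HOXD1, the 3' gene of HOXD, was at 0.0508 and 0.0351 CPM at day 0, 2.67 and 3.06 on day 1 and 0.134 and 0.375 on day 2. It ended at 0.398 and 0.45, so its peak was on day 1 in both libraries. HOXB9, far from the 3' end of its cluster, also had an early phase. It was at 0.72 and 0.565 on day 1, 0.153 and 0.206 on day 2 and 0.151 and 0.207 on day 3, and then 2.33 and 0.994 on day 4 and 4.84 and 8.35 on day 5.

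The 3' HOXB genes rose by different amounts. HOXB2, a hindbrain gene, was at 0.0508 and 0.158 CPM at day 0, 0.0947 and 0.502 on day 1, 1.15 and 1.33 on day 2, 4.57 and 2.58 on day 3, 16 and 10.3 on day 4 and 16.1 and 18.7 on day 5. Its day 5 mean was 167-fold above day 0 (log2 fold change 7.36 ± 0.65, SE, n = 2 and 2, edgeR adjusted p = 1.16e-13). HOXB1, the hindbrain gene whose promoter holds the PBX-HOX match, was at 0.303 and 0.314 on day 1, 0.612 and 0.618 on day 2, 1.42 and 0.96 on day 3, 5.12 and 2.03 on day 4 and 3.48 and 2.54 on day 5, 9.75-fold above day 0 (3.28 ± 0.54 on the log2 scale). HOXB3 had no count at day 0 or day 1, was at 0.115 and 0.0749 on day 2, 2.47 and 1.07 on day 3, 15.2 and 7.68 on day 4 and 17.8 and 25.2 on day 5, at least 416-fold above the floor of 3 counts set at day 0. On day 4 library a was above library b for each of these genes, and for HOXB1 the libraries of days 4 and 5 overlapped.

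Of the middle and 5' HOXB genes, HOXB6 was at 1.94 and 1.04 CPM on day 3, 10.9 and 6.48 on day 4 and 13.9 and 16.9 on day 5, at least 297-fold above the floor. On day 5 HOXB4 was at 4.21 and 4.63, HOXB5 at 4.68 and 3.58, HOXB7 at 1.06 and 1.23 and HOXB8 at 4.05 and 6.9. These were at least 85.5-fold, 79.8-fold, 22.1-fold and 106-fold above the floor. HOXB13, which lies 98.4 kb beyond HOXB9, did not pass in BMP4. It was at 0.316 and 0.235 on day 5, a 1.10-fold difference from day 0. Per kilobase of exon, which allows levels of different genes to be compared, HOXB2 was highest on day 5 at 7.45 CPM per kb, then HOXB6 at 5.91, HOXB3 at 2.88, HOXB8 at 2.67, HOXB9 at 2.56, HOXB5 at 2.02, HOXB1 at 1.22, HOXB4 at 1.18 and HOXB7 at 0.749. HOXB3 and HOXB6 share 433 exon bases on the same strand, so part of either level may belong to the other.

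In HOXA the 5' genes rose and the middle genes hardly did. On day 5 HOXA13 was at 1.17 and 1.72 CPM, HOXA11 at 1.84 and 2.54 and HOXA10 at 1.03 and 1.8. HOXA11 was at least 42.3-fold and HOXA10 at least 27.3-fold above the floor set at day 0. These genes pattern the limb and the genital tract. HOXA9 was at 0.645 and 0.684, and HOXA2 to HOXA7 at 0 to 0.233. Among the HOXC genes, HOXC13, the 5' gene known for its part in hair and nail, was at 0.0339 and 0.0702 at day 0 and 1.44 and 1.78 on day 5, 30.9-fold higher.

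Whether the order of onset followed the clusters depended on how onset was defined. With onset as the first day on which both libraries were at 1 CPM or more, 14 members had a day. HOXD1 reached it on day 1, HOXB2 on day 2, HOXB3 and HOXB6 on day 3, HOXB1, HOXB4, HOXB5 and HOXB8 on day 4, and HOXB7, HOXB9, HOXA10, HOXA11, HOXA13 and HOXC13 on day 5. Spearman's rho between paralogue number and this day was 0.84 over the 14 members and 0.61 over HOXB1 to HOXB9. With onset as the first day called higher than day 0, with all later days called too, 21 members had a day and rho was 0.22, and -0.04 over the same 9 HOXB genes. At 0.5 CPM rho was 0.71 over 16 members and 0.21 over the 9 HOXB genes, and at 2 CPM 0.76 over 9 members and 0.68 over the 8 HOXB genes among them. HOXB6, HOXB9, HOXA11 and HOXA13 were called from day 1, before HOXB2, HOXB3, HOXB4 and HOXB5. On day 1 HOXB6 had only 5 and 2 counts and HOXA11 3 and 2, near the floor of 3 counts, with none at day 0. HOXB2 had 5 and 24 counts on day 1 but 3 and 9 at day 0, so order by calls depends on the day 0 level. The genes share libraries and differ in level, and these correlations are descriptions without a test.

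**Figure D2:**
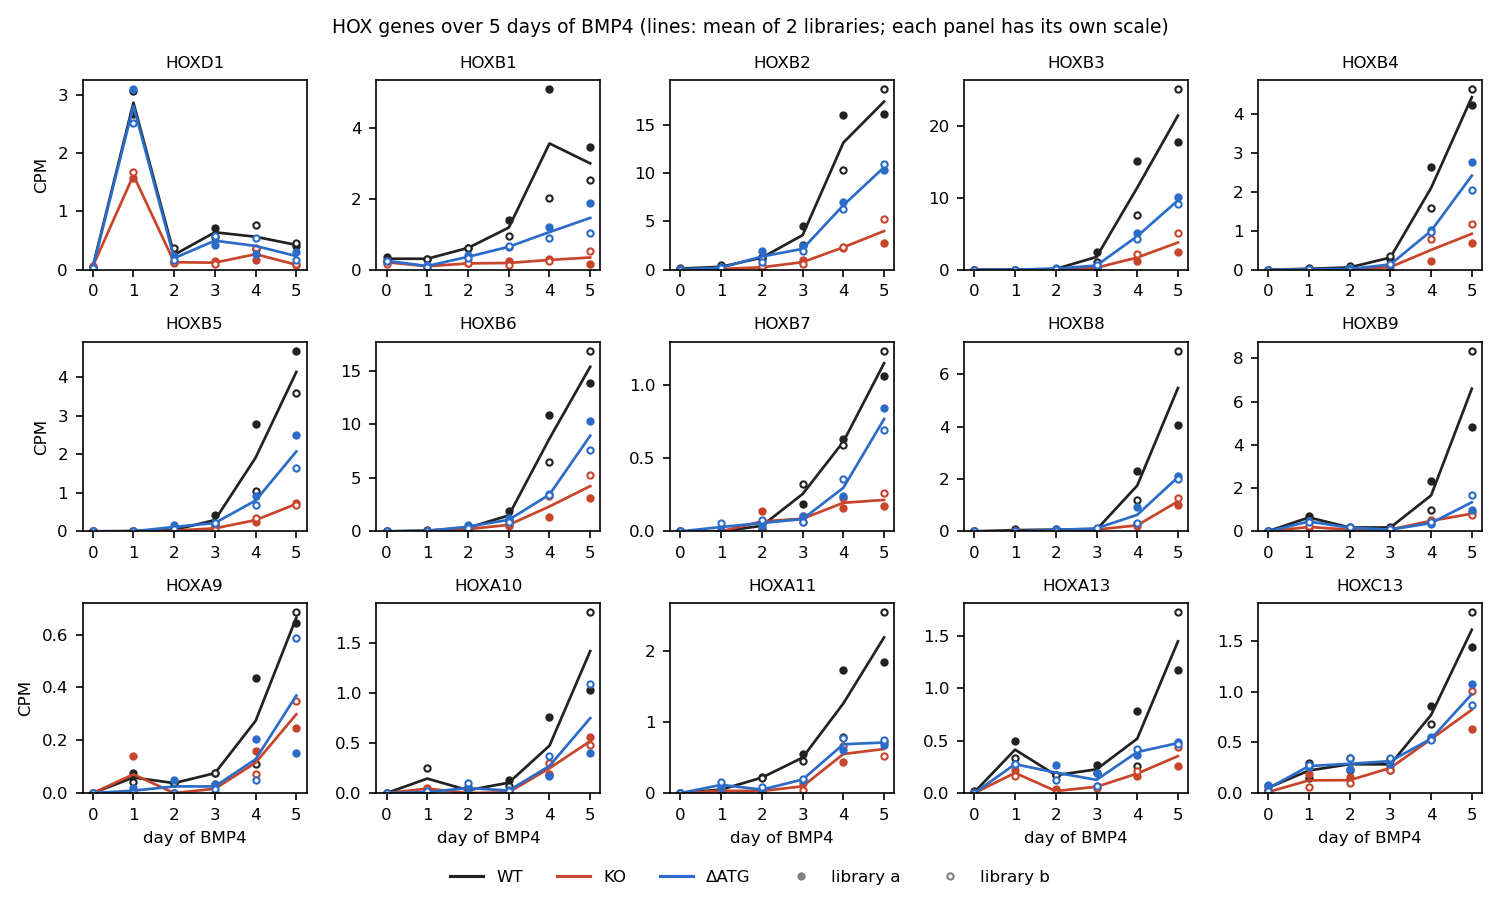
CPM against day of BMP4 for selected HOX genes in the 3 lines, filled circles for library a, open circles for library b and lines for the mean of both. HOXD1 peaks on day 1, HOXB2 and HOXB3 rise from days 2 and 3 and HOXB9 on days 4 and 5, and the KO libraries lie below the WT libraries at day 5 for the HOXB genes.

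With BMP4 the KO line reached lower levels than WT for most tested HOX genes, and for HOXB1 to HOXB9 ΔATG lay between. On day 5 the 39 genes summed to 15.7 and 24.1 CPM in KO against 79.6 and 101 in WT and 46.1 and 42.3 in ΔATG. Members at 1 CPM or more in both libraries numbered 4 in KO, 7 in ΔATG and 13 in WT. The HOXB genes had a mean sum of 16.2 CPM in KO, 39.4 in ΔATG and 79.3 in WT. Both comparisons use the same WT libraries, so they are not independent. By day, 0, 5, 7, 9 and 13 of 23 members were lower in KO than in WT (edgeR quasi-likelihood test, adjusted p under 0.05) and none was higher. Among all genes 0.515%, 4.59%, 4.58%, 7.67% and 11% were lower. On day 1, 4 of the 23 had an unadjusted p under 0.05. Against their own day 0, 6, 6, 11, 16 and 16 members rose in KO, against 17.1%, 17.8%, 15.1%, 19.5% and 18.9% of all genes, and 8, 11, 14, 17 and 17 in ΔATG, against 17.8%, 19.5%, 16.8%, 21.7% and 20.8%. The level of 1 CPM in both libraries was reached by HOXB2, HOXB3 and HOXB6 on day 4 and by HOXB8 on day 5 in KO. In ΔATG HOXB2 reached it on day 3, HOXB3 and HOXB6 on day 4 and HOXB1, HOXB4, HOXB5 and HOXB8 on day 5. HOXD1 reached it on day 1 in all 3 lines. For the HOXB genes named, WT reached it a day or more earlier, which is a difference in level and not a test of timing.

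On day 5 HOXB2 was at 2.78 and 5.21 CPM in KO, 10.3 and 10.9 in ΔATG and 16.1 and 18.7 in WT, with no overlap between lines. KO was 4.35-fold lower (-2.12 ± 0.47, edgeR adjusted p = 0.000487). HOXB1 was at 0.154 and 0.534 in KO, 1.88 and 1.05 in ΔATG and 3.48 and 2.54 in WT. It was 8.76-fold lower in KO (-3.14 ± 0.54, edgeR adjusted p = 1.71e-05). HOXB9 was at 0.895 and 0.736 in KO, 0.992 and 1.7 in ΔATG and 4.84 and 8.35 in WT, and it was lower in both lines, by -3.01 ± 0.53 in KO (edgeR adjusted p = 7.33e-05) and -2.29 ± 0.52 in ΔATG (adjusted p = 0.0031). HOXB3 was at 2.45 and 5.12 in KO, 10.1 and 9.22 in ΔATG and 17.8 and 25.2 in WT, 5.68-fold lower in KO.

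The same order of the lines held for the other HOXB genes. HOXB6 was at 3.15 and 5.32 CPM in KO, 10.3 and 7.6 in ΔATG and 13.9 and 16.9 in WT, 3.63-fold lower in KO. HOXB4 was at 0.679 and 1.16, 2.77 and 2.05, and 4.21 and 4.63 in the same order of lines, HOXB5 at 0.741 and 0.681, 2.5 and 1.64, and 4.68 and 3.58, and HOXB8 at 1.02 and 1.27, 2.13 and 2.01, and 4.05 and 6.9. HOXB7 was at 0.17 and 0.258, 0.84 and 0.689, and 1.06 and 1.23. For each of HOXB1 to HOXB9 both KO libraries were below both ΔATG libraries, and these below both WT libraries. All 9 passed as lower in KO on day 5. In ΔATG HOXB9 passed as lower, with HOXB13 and HOXD9, and the other 8 of HOXB1 to HOXB9 did not pass. HOXC13, at 0.633 and 1.01 in KO and 1.44 and 1.78 in WT, was 1.96-fold lower and did not pass.

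Averaged over the 5 days, 14 members were lower in KO and none higher, against 15.1% of all genes lower. The median over the tested members was -1.8 and over all genes 0. Among them were HOXB1 (-2.58 ± 0.25, edgeR adjusted p = 4.14e-11), HOXB13 (-2.32 ± 0.30, adjusted p = 8.53e-09) and HOXB2 (-2.27 ± 0.25, adjusted p = 2.53e-10). HOXB4, HOXB5, HOXB6, HOXB8, HOXB9, HOXA10, HOXA11, HOXA13, HOXD1 and HOXD11 were lower as well. Of these, HOXB4, HOXB5, HOXB8, HOXA10 and HOXD11 had a day without counts in KO, so their averages have no usable error. At its day 1 peak HOXD1 was at 1.57 and 1.67 CPM in KO, 3.1 and 2.52 in ΔATG and 2.67 and 3.06 in WT, and no member passed in KO on that day. HOXB5 and HOXB8 missed the threshold without WT day 1 library a, HOXB4 without WT day 1 library b, HOXA10 without WT day 2 library b, and HOXD11 without WT day 2 or day 3 library a. With 1 effect fitted for all days, in place of the mean of the daily effects, 18 members were lower, against 15.7% of all genes.

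In ΔATG 1, 1, 1, 2 and 3 members were lower by day, against 0.523%, 1.2%, 2.19%, 1.72% and 5.22% of all genes. Over the 5 days 5 were lower, against 8.12%, among them HOXB13 (-2.79 ± 0.32, edgeR adjusted p = 1.22e-09), HOXB9 (-1.22 ± 0.26), HOXB1 (-1.19 ± 0.24) and HOXA11 (-0.97 ± 0.32). Without WT day 4 library a 3 were lower and HOXA11 missed the threshold, and with 1 shared effect 8, against 8.55% of all genes. HOXA11 missed it in 10 of the 20 fits that left out 1 library. Compared with KO directly, ΔATG was higher in 6 members against 8.26% of all genes. Among these were HOXB2 (1.71 ± 0.26, edgeR adjusted p = 1.87e-06), HOXB1 (1.39 ± 0.26), HOXA13 (1.25 ± 0.35), HOXB6 (1.15 ± 0.37) and HOXD1 (1.11 ± 0.27). HOXB6 missed the threshold in 9 and HOXA13 in 3 of the 20 fits without 1 library.

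**Figure D3:**
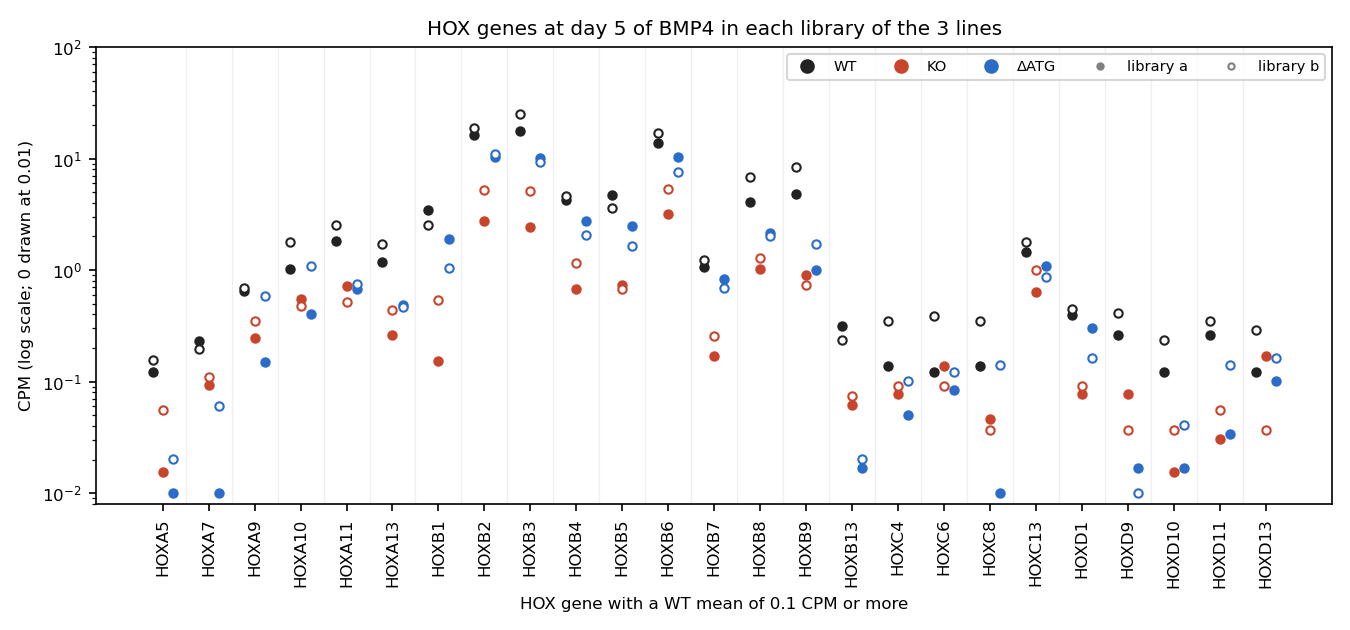
CPM (log axis, 0 drawn at 0.01) of each library at day 5 of BMP4, by line, for the shown HOX genes, all with a WT mean of 0.1 CPM or more. For HOXB1 to HOXB9 the WT libraries lie highest, the ΔATG libraries between and the KO libraries lowest.

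Marker lists of lateral mesoderm, primitive streak and pluripotent cells differed between the lines as well on day 5 of BMP4. The amnion and trophoblast list and the other marker lists are not given for this day. The lateral mesoderm list, HAND1, FOXF1, TBX20 and GATA4, summed to 258 to 298 CPM in WT, 143 to 173 in ΔATG and 63.9 to 98.7 in KO, and the primitive streak list of 4 genes to 56.2 to 62.7, 25.3 to 40.1 and 11.9 to 23.0. HAND1 was at 208 and 240 CPM in WT, 148 and 122 in ΔATG and 54.9 and 80.2 in KO. SOX2, a gene of pluripotent and neural cells, went the other way, at 147 and 124, 242 and 271, and 413 and 338, and the 4 pluripotency genes together at 1430 to 1440, 1690 to 1700 and 1710 to 1850. No marker of the lateral mesoderm or primitive streak lists was at 0 in these groups. In bulk libraries fewer cells of a type and less RNA per cell cannot be told apart, and the part of these markers in the HOX result was not tested.

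The pathways around the clusters were read from lists of other genes. On day 5 of BMP4 in WT, 12 of 17 tested CDX and posterior axis genes rose and 3 fell, where 21.6% of all genes rose and 20.3% fell. CDX2, a caudal factor that acts on HOX clusters, rose from a mean of 0.0605 to 13 CPM (7.69 ± 0.71), and EVX1, a streak gene next to HOXA13, from 0.0423 to 19 (8.71 ± 0.51). Of 9 HOX cofactors 6 rose and none fell, among them MEIS1 (6.84 ± 0.45) and MEIS2 (6.38 ± 0.58), homeodomain partners of HOX proteins. Of 18 noncoding RNAs of the clusters 7 passed the filter, which a gene can do through the groups where it is high, and these 7 rose. Over the 5 days 15 of the 17 CDX and posterior genes were lower in KO and none higher, against 15.1% and 12.5% of all genes, with CDX2 at -2.50 ± 0.22 and CDX1 at -2.36 ± 0.20. In ΔATG 11 were lower and none higher, against 8.12% and 7.63%, with CDX2 at -1.39 ± 0.21.

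The other lists are read against the same shares of all genes. In KO 4 cofactors were lower and 1 higher, with MEIS1 at -1.71 ± 0.16 and MEIS2 at -1.54 ± 0.21. In ΔATG the counts were also 4 and 1. Of the cluster noncoding RNAs 5 of 7 were lower in KO, HAGLR of the HOXD cluster among them (-1.31 ± 0.26), and 2 in ΔATG. Of 20 retinoic acid genes 10 rose and 3 fell in WT on day 5, and 10 were lower and 5 higher in KO. CYP26C1, which degrades retinoic acid, was higher in KO (1.10 ± 0.25) and ALDH1A2, which makes it, lower (-1.71 ± 0.40). The Polycomb list moved both ways in WT, with 10 of 29 up and 9 down, and in KO 4 were higher and 3 lower. PHC1 was higher in KO by 0.42 ± 0.04. Of the Trithorax list of 14 genes, 3 rose and 1 fell in WT on day 5, and 2 were higher and 2 lower in KO. Of 12 anterior neural genes 6 rose in WT on day 5 and none fell, and 4 were higher in KO, FEZF1 by 1.32 ± 0.15 and RAX by 1.42 ± 0.23. Of 11 midbrain and hindbrain genes 7 were lower in KO and 1 higher, PAX2 by -2.73 ± 0.40 among the lower.

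The endoderm protocol used another set. In WT HOXB13, HOXB2 and HOXD13 stayed on, and HOXB9 was on for a day. Higher than day 0 were 12, 15, 8, 8 and 9 of the 23 members on days 1 to 5, against 23.3%, 27.6%, 29.9%, 30.2% and 30.5% of all genes. The shares of members on days 3 to 5, 34.8%, 34.8% and 39.1%, were near those of all genes. HOXB7, HOXD1 and HOXD11 each missed the day 5 threshold in 3 of the 4 fits without 1 library. HOXB13, a gene of the hindgut, prostate and tail bud, was at 4.08 and 3.27 CPM on day 1, 7.14 and 7.68 on day 2, 2.1 and 2.18 on day 3, 2.99 and 2.91 on day 4 and 3.55 and 4.31 on day 5 (3.97 ± 0.53 against day 0, edgeR adjusted p = 4.29e-09). HOXD13, a gene of the digits, hindgut and genital tubercle, was at 0.323 and 0.105 on day 1, 0.853 and 0.772 on day 2, 3.42 and 2.77 on day 3, 3.98 and 4.47 on day 4 and 7.15 and 6.69 on day 5 (7.95 ± 0.84, adjusted p = 1.94e-11). On day 5 HOXB2, HOXB13 and HOXD13 were the 3 members at 1 CPM or more in both WT libraries.

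HOXB2 was at 1.11 and 0.559 CPM on day 1, 4.18 and 4.09 on day 2 and 3.07 and 3.13 on day 5. HOXB9 was at 1.8 and 1.52 on day 1 and under the floor from day 3. HOXB1 was at 0.521 and 0.629 on day 1 and had no count on days 4 and 5. Per kilobase HOXD13 was highest on day 5, at 3.09 CPM per kb, then HOXB2 at 1.33 and HOXB13 at 1.13. On day 2 HOXB13 was at 2.14 and HOXB2 at 1.77. Over the 9 members called from some day onward, 7 of them from day 1, rho between paralogue number and day of onset was -0.46. By level it was 0.06 over the 4 members that reached 1 CPM and 0.22 over the 7 that reached 0.5 CPM. These are descriptions without a test.

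Both edited lines had far less HOXB13 in Endo. KO was at 0.12 and 0.148 CPM on day 1, 0.671 and 0.468 on day 2 and 0.0204 and 0.0592 on day 5, and ΔATG at 0 and 0.0352, 0.0895 and 0.145, and 0 and 0. Over the 5 days the difference from WT was -5.16 ± 0.27 in KO (edgeR adjusted p = 6.73e-22) and -7.38 ± 0.33 in ΔATG (adjusted p = 3.49e-25). As ΔATG had no HOXB13 count on day 5, the size of its average is approximate and its SE is not a usable error. HOXD13 was at 1.51 and 1.46 on day 5 in KO and 1.82 and 1.93 in ΔATG, against 7.15 and 6.69 in WT, and over the 5 days lower by -1.89 ± 0.29 and -2.70 ± 0.33. HOXB2 on day 5 was at 0.755 and 0.67 in KO and 0.687 and 0.294 in ΔATG, against 3.07 and 3.13, and lower by -1.96 ± 0.24 and -3.25 ± 0.26. The libraries of the edited lines lay below WT on every day for HOXB13 and HOXB2.

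In all 6 members were lower in KO over the 5 days of Endo, against 8.27% of all genes, HOXB3, HOXA11 and HOXD11 being the others. HOXD11 stayed at or under 0.209 CPM in all of these libraries. It had no count on some days in both edited lines, so its averages have no usable error. Without WT day 3 library a HOXA11 and HOXD11 missed the threshold and 4 were lower. In ΔATG 7 were lower, against 17.1% of all genes, the same 6 and HOXD9. HOXD9 had no count in ΔATG on day 2, so its average has no usable error either. Leaving out 1 library took HOXD9 below the threshold in 11 fits and HOXA11 in 6. HOXD11 missed it without WT day 3 library a. With 1 shared effect 13 were, against 17.9%. By day 2, 6, 2, 1 and 3 members were lower in KO, against 1.84%, 1.7%, 2%, 1.98% and 2.58% of all genes, and 4, 11, 4, 3 and 4 in ΔATG, against 7.53%, 6.32%, 7.84%, 7.36% and 8.4%. HOXD1 alone was higher, in ΔATG on day 4 (2.41 ± 0.72), against 7.27% of all genes. ΔATG was below KO in 2 members, HOXB13 (-2.23 ± 0.52, edgeR adjusted p = 0.00107) and HOXB2 (-1.29 ± 0.29, adjusted p = 0.000746), against 9.37% of all genes. Without KO day 1 library a HOXB2 missed the threshold and 1 was left, with DESeq2 4 were lower, and with 1 shared effect 5, against 9.63%.

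The endoderm markers were less apart between lines. On day 5 the definitive endoderm list summed to 12800 to 13300 CPM in WT, 12700 to 12800 in KO and 8010 to 8790 in ΔATG, with SOX17 at 423 and 422, 416 and 403, and 359 and 354. The part of these markers in the HOX result was not tested. The CDX and posterior list had 6 of 17 lower and 1 higher in KO over the 5 days, TBXT by -0.83 ± 0.10 among the lower, and 2 of the 9 cofactors were lower, against 8.27% of all genes lower and 7.25% higher.

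In the neural protocol the HOX clusters stayed low, and what signal there was came from the ends of HOXB and from HOXC4. In WT 2, 2, 3, 1 and 1 members rose on days 1 to 5, against 21.7%, 18.6%, 20.1%, 22.5% and 25.6% of all genes. HOXB13 was at 1.37 and 0.991 CPM on day 1, 2.22 and 1.58 on day 2, 1.27 and 1.19 on day 3, 0.286 and 0.302 on day 4 and 0.196 and 0.0924 on day 5 (2.92 ± 0.52 on day 2, edgeR adjusted p = 1.06e-05). HOXC4, a gene of the cervical region, was at 0.269 and 0.164 on day 3, 0.439 and 0.362 on day 4 and 1.22 and 0.979 on day 5 (6.65 ± 1.21, adjusted p = 7.19e-06). It shares 484 exon bases with HOXC6. HOXC4 was at 0.523 and 0.447 in KO and 0.538 and 0.495 in ΔATG on day 5. HOXB1 peaked at 0.719 and 0.762 on day 2 and was lower than at day 0 on day 5 (-2.64 ± 0.70), as was HOXD1 (-4.31 ± 1.57), the 2 members that fell, against 25.9% of all genes. HOXD1 missed the threshold in 3 of the 4 fits without 1 library.

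HOXB1, HOXB2 and HOXB13 were lower in both edited lines over the 5 days of SMADi, and no other member was. KO differed from WT by -4.54 ± 0.52, -5.06 ± 0.55 and -3.46 ± 0.30 in that order, and ΔATG by -5.02 ± 0.56, -5.96 ± 0.61 and -4.94 ± 0.37. Except for HOXB13 in KO, each of these averages includes a day without counts in the edited line. Their sizes are therefore approximate and their SE is not a usable error. On day 2 HOXB13 was at 0.0739 and 0.138 CPM in KO and 0.194 and 0.0335 in ΔATG, against 2.22 and 1.58 in WT. HOXB1 and HOXB2 stayed at or under 0.0591 CPM in the edited lines on days 1 to 5. Over all genes 25.4% were lower in KO and 24.8% in ΔATG, so the shares of members lower, 3 of 23 each, were below the background. With 1 shared effect 4 and 6 members were lower, against 25.1% and 24.6%. Between ΔATG and KO no member passed by edgeR or by DESeq2, against 1.26% of all genes, and 1 had an unadjusted p under 0.05 by edgeR. The 12 anterior neural genes all rose in WT by day 5, against 25.6% of all genes, with a median of 5.24 on the log2 scale. The neuroectoderm list summed to 450 to 470 CPM in WT, 1070 to 1130 in KO and 950 to 1020 in ΔATG, and PAX6 was at 139 and 161, 365 and 389, and 305 and 335. The part of these markers in the HOX result was not tested.

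**Figure D4:**
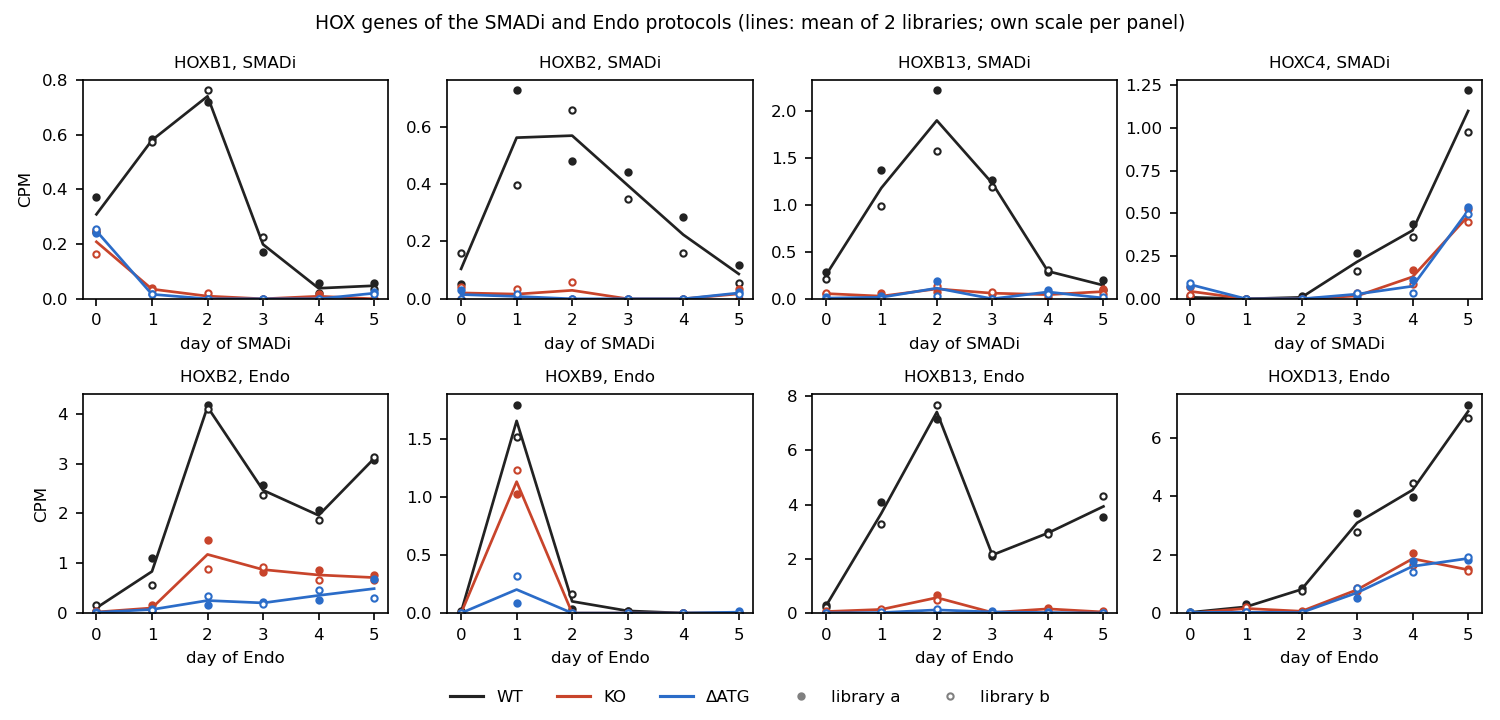
CPM against day of SMADi (top) and Endo (bottom) for HOX genes in the 3 lines, single libraries and the mean of 2, each panel with its own scale. HOXB13 peaks on day 2 in WT in both protocols and is at 0.671 CPM or less in KO and ΔATG, and HOXD13 climbs through day 5 of Endo in WT to 7.15 and 6.69 CPM.

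The protocols were also set against each other at day 5 in WT. BMP4 was higher than SMADi in 21 members and different in 22, against 26.8% of all genes higher and 52.3% different. BMP4 was higher than Endo in 17 and lower in 2, HOXD13 (-5.08) and HOXB13 (-3.81), against 29.6% and 28% of all genes. SMADi was higher than Endo in 3 and lower in 7, against 30.6% and 28.3%. The share of members lower, 30.4%, was near that of all genes. HOXA13 and HOXB1 each missed the threshold in 3 of the 4 fits without 1 library.

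HOXB13 differed between lines before any protocol began. At day 0 it was at 0.288 and 0.211 CPM in WT, 0.0503 and 0.0618 in KO and 0.0151 and 0 in ΔATG, and the libraries did not overlap. ΔATG was lower by edgeR (-4.59 ± 0.91, adjusted p = 0.000875), the 1 member that passed, against 2.59% of all genes lower. When the lines at day 0 were fitted on their own it did not pass. In KO no member passed by edgeR (HOXB13 -2.12 ± 0.68, adjusted p = 0.0716), against 3.57% of all genes in either direction, and 2 had an unadjusted p under 0.05. With the replicate letter as a block HOXB13 passed (-2.12, edgeR adjusted p = 0.0338), and with DESeq2 too (-2.15, adjusted p = 0.035).

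PRAC1 and PRAC2, small genes between HOXB13 and HOXB9 known to be expressed in prostate and rectum, moved with HOXB13 in the differentiation arm. They belong to the list of genes beside the clusters and were singled out after their values were seen. PRAC2 (chr17:48723168-48724758, plus strand) ends 4 bases from HOXB13 (chr17:48724763-48729178, minus strand), and PRAC1 (chr17:48721719-48722522, minus strand) lies 2240 bases from it. PRAC1 was at 0.491 and 0.404 CPM in WT at day 0, at 5.94 and 5.99 on day 2 of SMADi and at 5.9 and 6.41 on day 2 of Endo. In KO it was at 0.0185 and 0.0394 on day 2 of SMADi. Over 5 days of SMADi PRAC1 was lower by -7.33 ± 0.38 in KO and -7.03 ± 0.38 in ΔATG, and over 5 days of Endo by -5.20 ± 0.39 and -5.38 ± 0.38. Between ΔATG and KO its SE was 605 in SMADi and 312.77 in Endo. The sizes of these averages are therefore approximate, and their SE may not be a usable error. At day 0 PRAC1 was lower in KO (-2.98 ± 0.68, edgeR adjusted p = 0.006) and in ΔATG (-7.62 ± 1.15, adjusted p = 1.73e-05), and PRAC2 as well (-2.83 ± 0.76 and -5.05 ± 0.97).

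In the overexpression arm the vector libraries held 3 HOXB genes at 1 CPM or more at every stage, above their levels at WT day 0, a difference between arms that was not tested. HOXB13 was at 6.09 and 5.67 CPM at the early stage, 5.7 and 5.98 at the middle and 5.39 and 6.59 at the late stage. HOXB2 was at 2.19 and 1.6, 3.87 and 2.72, and 2.31 and 2.22, and HOXB1 at 1.95 and 2.05, 2.99 and 2.83, and 2.72 and 2.05. Between late and early vector libraries no member passed by edgeR or DESeq2, against 0.124% of all genes, and 2 had an unadjusted p under 0.05 by edgeR. All 39 members passed the filter in this arm.

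Libraries labelled lncPRESS1 ΔATG had less of all 3 genes. HOXB13 was at 2.67 and 2.73 CPM at the early stage, 1.61 and 1.83 at the middle and 1.3 and 1.33 at the late stage, below every vector library. HOXB2 was at 0.89 and 0.916, 0.563 and 1.3, and 0.293 and 0.461, and HOXB1 at 1.4 and 1.23, 1.17 and 1.38, and 0.678 and 0.529, also below the vector at each stage. Over the 3 stages HOXB13 was lower by -1.69 ± 0.09 (edgeR adjusted p = 2.63e-10), HOXB2 by -1.82 ± 0.17 (adjusted p = 5.56e-07) and HOXB1 by -1.26 ± 0.16 (adjusted p = 1.59e-05). HOXC4 and HOXD13, both under 0.3 CPM, made up the 5 lower members, against 13.8% of all genes, and HOXD13 missed the threshold without vector middle library b. By stage 2, 4 and 5 members were lower, against 14.1%, 3.42% and 10.8%. PRAC1 (-1.43 ± 0.09) and PRAC2 (-1.49 ± 0.09) were lower as well. Libraries a and b differed more under this label than in the vector at the early and middle stages, so these SEs may be too small. Of 18 tested CDX and posterior genes 11 were lower and 1 higher over the 3 stages, against 13.8% and 10.4% of all genes.

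The middle libraries labelled lncSIRP and lncPRESS1 held the highest HOX levels of the study. The 39 genes summed to 755 and 772 CPM in those labelled lncSIRP and 882 and 875 in those labelled lncPRESS1, against 13.0 and 12.3 in the vector. All 39 members passed against the vector in each, 38 higher and HOXB1 lower, where 59.3% of all genes differed for lncSIRP and 57.4% for lncPRESS1. For 38 members the lowest of the 4 libraries exceeded the highest of the other 20 of the arm, and for 36 it exceeded all 96 differentiation libraries. At 1 CPM or more in all 4 were 31 members.

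Members of all 4 clusters took part, with mean sums of 261 CPM for HOXA, 307 for HOXB, 130 for HOXC and 65.1 for HOXD under the lncSIRP label and 293, 389, 127 and 69.7 under the lncPRESS1 label. HOXB9 was at 86.3 and 93.7 CPM in the libraries labelled lncSIRP and 101 and 105 in those labelled lncPRESS1, at least 1760-fold and 2020-fold above the floor in the vector. HOXA13 was at 75.2 and 81.1, and 81.1 and 82.4, HOXA10 at 73.1 and 76.5, and 73.5 and 70.4, and HOXC6, a thoracic gene, at 51.3 and 53.7, and 50.2 and 51.7. HOXD13 was at 13.1 and 11.9, and 15.7 and 15. Over the 4 libraries the other HOXA genes ranged from 0.302 to 47.3 CPM, with HOXA9 highest and HOXA4 lowest, and the other 7 HOXB genes from 5.9 to 75.9. The other 8 HOXC genes ranged from 0.272 to 34.5, with HOXC8 highest and HOXC12 lowest, and the other 8 HOXD genes from 0.353 to 16.6, with HOXD11 highest and HOXD1 lowest. HOXB1 alone fell, to 0.202 and 0.464, and 0.438 and 0.625 (-3.13 ± 0.31, edgeR adjusted p = 1.22e-07, and -2.46 ± 0.30, adjusted p = 1.56e-06). Per kilobase HOXB9 led at 40.1 CPM per kb in lncPRESS1, with HOXB8 at 32.4, HOXB6 at 28.7 and HOXA10 at 19.4. In the vector HOXB13, at 1.68, HOXB2, at 1.41, and HOXB1, at 1.17, led.

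In these 4 libraries HOXB13 and PRAC1 went in opposite directions. HOXB13 was at 11.4 and 11.1 CPM in those labelled lncSIRP and 15.6 and 17 in those labelled lncPRESS1, higher than the vector by 0.94 ± 0.14 and 1.48 ± 0.14. PRAC1 was at 1.73 to 2.42 against 11.7 and 11.3 in the vector. PRAC2, the nearer gene, was at 3.73 and 3.9 in those labelled lncSIRP and 5.93 and 6.87 in those labelled lncPRESS1, against 6.59 and 7.6, so the second pair overlapped the vector. Over the 3 stages PRAC1 was lower for lncPRESS1 (-0.7 ± 0.09) and lncSIRP (-0.83 ± 0.09), and PRAC2 did not pass for either (0.09 ± 0.09, edgeR adjusted p = 0.434, and -0.08 ± 0.09, adjusted p = 0.492). No member differed between the middle libraries labelled lncPRESS1 and lncSIRP by edgeR, against 1.58% of all genes, and 3 had an unadjusted p under 0.05.

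Other markers moved with the HOX genes there. The lateral mesoderm list summed to 706 to 733 CPM in the middle lncSIRP libraries and 811 to 853 in the lncPRESS1 ones, against 3.74 to 4.93 in the vector, and the fibroblast list to 6310 to 6570 and 4940 to 5060 against 476 to 483. SOX2 was at 3.28 to 5.42 against 254 to 256. CDX2 rose to a mean of 220 CPM in lncPRESS1 (11.62 ± 0.38), MEIS2 to 91.2 (8.63 ± 0.49) and ALDH1A2, the enzyme that makes retinoic acid in mesoderm, to 86 (9.46 ± 0.75). Of 15 cluster noncoding RNAs tested, of 18, 14 rose in lncPRESS1 and 11 in lncSIRP, and none fell. Of 18 CDX and posterior genes 11 rose and 4 fell in lncPRESS1, and 11 and 5 in lncSIRP. Of all genes 28.2% rose and 29.1% fell in lncPRESS1, and 29.5% and 29.9% in lncSIRP. The part of these markers in the HOX levels was not tested.

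Away from the middle stage few HOX genes differed from the vector under these labels. At the early stage no member passed by edgeR for either, against 0.275% of all genes for lncPRESS1 and 8.79% for lncSIRP, with unadjusted p under 0.05 in 0 for lncPRESS1 and 1 for lncSIRP. At the late stage 2 passed for each. HOXD11 (3.52 ± 0.85, edgeR adjusted p = 0.0112) and HOXB13 (0.42 ± 0.14, adjusted p = 0.0418) were higher for lncPRESS1, against 21.3% of all genes in either direction. For lncSIRP HOXB13 was higher (0.55 ± 0.14, adjusted p = 0.0115) and HOXC4 lower (-2.89 ± 0.99), against 20.5%. Averages over the 3 stages called 13 members for lncPRESS1 and 12 for lncSIRP, against 45.8% and 49.9% of all genes. Without the middle stage they called 0 and 1.

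**Figure D5:**
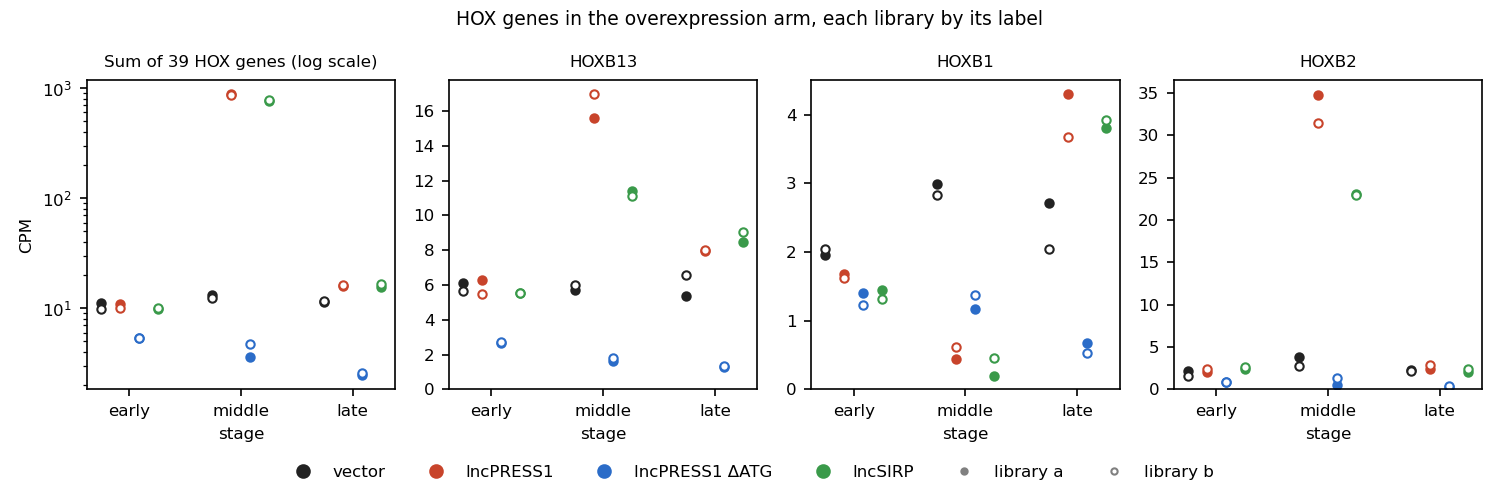
CPM of each overexpression library by stage and construct label, for the sum of 39 HOX genes (log axis) and for single genes. The middle libraries labelled lncSIRP and lncPRESS1 reach sums of 755 to 882 CPM, and the lncPRESS1 ΔATG libraries lie below the vector for HOXB13, HOXB2 and HOXB1.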

How the data were processed

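Gene expression was measured by stranded RNA-seq of polyadenylated RNA, per the labels' protocols. The authors deposited 1 table of expected counts for 62703 genes in 120 libraries, on GRCh38 per the submitters' processing notes, and the sources used here name no aligner or quantifier. Expected counts were rounded to whole numbers. The filter of edgeR 4.0.16 (R 4.3.3) left 25821 genes for the differentiation libraries and 23300 for the overexpression libraries. Each arm was fitted apart, with TMM scaling and quasi-likelihood F tests, and adjusted p (Benjamini-Hochberg) under 0.05 over all genes of a contrast was called. All groups of an arm shared the estimate of a gene's spread. Libraries a and b differed more at day 0 and in most BMP4 groups than in most SMADi and Endo groups. In the overexpression arm they differed most in the early libraries labelled lncPRESS1 and in the early and middle ones labelled lncPRESS1 ΔATG. Tests at day 0, in BMP4 and of these overexpression groups may therefore use too small a spread. DESeq2 1.42.0, no filter, fits of the compared groups alone, a replicate block and leaving out each library were the alternatives. Folds of genes without counts in a group were taken against 3 counts per library. The script was tested on simulated data. Letters paired libraries at day 0 (correlations 0.36 to 0.621) and in BMP4 (0.147 to 0.586, all 15 pairs above 0.1). In SMADi and at the early and middle overexpression stages no pair was above 0.1, and the lowest was -0.332. In Endo 1 of 15 pairs was, and at the late overexpression stage 3 of 6, at most 0.174. All members enter the counts and sums, and some single values are not reported here. Those with a group mean of 1 CPM or more are given by library, except some of the middle overexpression libraries, and the others by range, and of other lists the called genes with the highest rises and deepest falls were named. Members and lists were chosen with earlier results of these data known.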

Additional observations from a re-analysis of the deposited data

Results flagged for a closer look

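In 7 cases the effect of an edit on a HOX gene, averaged over days 1 to 5, differed between BMP4 and Endo by edgeR's interaction test, with adjusted p over all genes. Values are the effect against WT in BMP4 minus that in Endo, on the log2 scale, with SE. HOXB13 was less reduced in BMP4 than in Endo in KO (2.83 ± 0.47, edgeR adjusted p = 4.96e-06) and in ΔATG (4.6 ± 0.66, adjusted p = 2.27e-07). Its WT level was also lower in BMP4. Without KO BMP4 day 2 library a the KO difference no longer passed. HOXD13 was lower than WT in Endo and did not pass as lower in BMP4 in either line. Its differences were 1.84 ± 0.48 in KO (edgeR adjusted p = 0.00386) and 1.89 ± 0.72 in ΔATG (adjusted p = 0.049), the second not passing in 29 of 40 fits without 1 library. HOXB2 (2.7 ± 0.35, edgeR adjusted p = 2.31e-08) and HOXB3 (2.98 ± 1.01, adjusted p = 0.0266) were less reduced in BMP4 in ΔATG. The HOXB3 difference did not pass without ΔATG BMP4 day 1 library a. HOXD1 went the other way in KO (-1.71 ± 0.4, edgeR adjusted p = 0.001). It was lower than WT in BMP4 and did not pass in Endo, where its daily means were 0.0824 to 0.261 CPM in KO and 0.0545 to 0.264 in WT. The WT level of HOXD13 was lower in BMP4 too, with daily means of 0.0187 to 0.373 CPM against 0.214 to 6.92 in Endo. HOXB3 had no count in WT on day 1 of BMP4, and HOXB13 none in ΔATG on day 5 of Endo. Their ΔATG values above therefore have no usable error.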

How the results depend on the processing

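Of 162 tested values of single members, 144 kept their direction and side of the threshold with DESeq2, 18 no longer passed and none reversed. Without the filter 162 of 169 kept both, with fits of the compared groups alone 147 of 149, with the replicate block 168 of 169, and in fits without 1 library 1759 of 1904. No other count of called members moved by over 1.5 times than those given here. With DESeq2, ΔATG was below KO in Endo in 4 members (2 with edgeR), KO differed from WT at day 0 in 1 (0), and over the 3 stages lncPRESS1 differed from vector in 27 (13) and lncSIRP in 25 (12). With the replicate letter as a block, KO differed from WT at day 0 in 1 member, and the block changed no other count by over 1.5 times. Fits of only the compared groups gave 6 members for WT Endo day 5 against day 0 (10 in the whole arm), 5 for SMADi against Endo at day 5 (10) and 0 for ΔATG against WT at day 0 (1). With onset read at 2 CPM 9 members had a day, against 21 by calls.

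With 1 effect shared by the days or stages, chosen after seeing the data, ΔATG differed from WT in 8 members in BMP4 (5), 6 in SMADi (3) and 13 in Endo (7), ΔATG from KO in Endo in 5 (2), and lncPRESS1 and lncSIRP from vector in 39 each. Averaged daily effects have no usable error for a gene without counts in a whole group, which the shared effect avoids. Without the middle stage, also chosen after seeing the data, lncPRESS1 gave 0 members and lncSIRP 1. HOXB1 then turned to 0.23 for lncPRESS1 and 0.08 for lncSIRP, and HOXA7 to -0.11, HOXD13 to -0.48 and HOXC4 to -0.08 for lncPRESS1, and HOXA10 to -0.01 for lncSIRP. Leaving out 1 library in turn gave 3 to 6 members for ΔATG against WT in BMP4, 1 to 3 for ΔATG against KO in Endo and 12 to 15 for KO against WT in BMP4. A lone library was then assumed to vary like the other groups. The causes were not tested. Members at or under 0.0815 CPM are within the limit that a count of 0 allows.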
